A study of Mus musculus with 48 samples.

Results

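The levels of 10 acute phase protein genes, Saa1, Saa2, Saa3, Saa4, Orm1, Orm2, Lcn2, Hp, Hpx and Apcs, were followed mouse by mouse in liver RNA. All probe sets that carry only the symbol of 1 of these genes were taken, which gave 12 probe sets among the 45037 that were tested, and 10 genes among the 18193 that have a probe set with 1 symbol. The genes were selected on measured values of these same arrays, namely a spread between mice that was wider at 2-d than at 4-wk, so that their spread by time point and their change over time are given as a description with no test. No threshold was part of that choice. A level is the deposited RMA value on the log2 scale, where a difference of 1 is a doubling, and levels of different probe sets are not compared with each other.

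One array was run for each of 48 male C57BL/6J mice, which arrived at 6 to 7 wk of age, were acclimated for 2 wk and then all ate the low protein to carbohydrate high-fat diet (L-P/C-HF; 15% of energy as protein, 30% as carbohydrate and 55% as fat) for 10 wk. By label, 24 of them then received a high protein to carbohydrate high-fat diet (H-P/C-HF; 30% as protein, 15% as carbohydrate and 55% as fat), the others stayed on L-P/C-HF, and each diet was sampled after 2-d and after 4-wk. The labels use other short names for the diets, of which HFHC was read as L-P/C-HF and HPHC as H-P/C-HF. There were 12 mice in each of the 4 groups. Array B25, of H-P/C-HF 2-d mouse 1, was left out, so that 47 arrays were used and that group has 11 mice. Every mouse, controls included, was obese from high-fat feeding, and the model is of 1 strain and 1 sex. The last glucose tolerance test lay 3 to 4 d before death in the 2-d mice and 6 to 8 d before death in the 4-wk mice. Duration, age, day of death and the time since that test cannot be told apart.

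Acute phase proteins are plasma proteins whose production by hepatocytes changes during infection, injury or inflammation. Interleukin 6 acting through STAT3, and interleukin 1 acting through NF-kB and C/EBP factors, raise transcription of the positive acute phase genes, while other liver genes such as albumin are lowered. In the mouse, serum amyloid A and serum amyloid P are the classic strong responders, and the transcripts are known to move by large factors within hours.

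The Saa genes lie together on chromosome 7 and the Orm genes on chromosome 4. In RefSeq (GRCm38.p6), Saa1 spans chr7:46740497-46743181, Saa2 chr7:46751833-46754313, Saa3 chr7:46711998-46719615, Orm2 chr4:63362449-63365877 and Lcn2 chr2:32384637-32387739. Promoter sequences were found for 8 of the 10 genes (not for Orm1 and Hp). The 250 bases before the transcription start used by the RefSeq promoter table are shown 5′ to 3′ for the 5 genes with the widest swings between mice. Capitals mark matches, on either strand, to the letters TTNNGNAA of the C/EBP motif. Their positions are chr7:46742981-46743230 (minus strand) for Saa1, chr7:46751583-46751832 (plus strand) for Saa2, chr7:46715677-46715926 (minus strand) for Saa3, chr4:63362199-63362448 (plus strand) for Orm2 and chr2:32387740-32387989 (minus strand) for Lcn2. The start used lies at the end of the gene span for Saa2, Orm2 and Lcn2, but inside it for Saa1 and Saa3, so that the window of Saa3 lies wholly, and that of Saa1 mostly, within the span given above and may not be the promoter of every transcript.
Saa1: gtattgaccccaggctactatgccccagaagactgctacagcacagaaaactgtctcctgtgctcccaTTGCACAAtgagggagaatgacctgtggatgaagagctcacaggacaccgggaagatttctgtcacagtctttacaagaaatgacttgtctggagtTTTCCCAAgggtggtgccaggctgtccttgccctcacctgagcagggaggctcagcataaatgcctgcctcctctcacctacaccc
Saa2: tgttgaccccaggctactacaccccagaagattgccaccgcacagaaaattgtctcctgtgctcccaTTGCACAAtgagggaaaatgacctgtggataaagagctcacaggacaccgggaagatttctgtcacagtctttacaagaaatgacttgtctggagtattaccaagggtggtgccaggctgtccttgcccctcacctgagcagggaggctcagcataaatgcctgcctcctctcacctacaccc
Saa3: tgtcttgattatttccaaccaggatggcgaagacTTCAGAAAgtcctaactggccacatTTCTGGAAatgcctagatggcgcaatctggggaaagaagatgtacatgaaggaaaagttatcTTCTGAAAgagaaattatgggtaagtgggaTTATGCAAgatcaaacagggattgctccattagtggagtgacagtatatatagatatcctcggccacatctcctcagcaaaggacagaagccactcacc
Orm2: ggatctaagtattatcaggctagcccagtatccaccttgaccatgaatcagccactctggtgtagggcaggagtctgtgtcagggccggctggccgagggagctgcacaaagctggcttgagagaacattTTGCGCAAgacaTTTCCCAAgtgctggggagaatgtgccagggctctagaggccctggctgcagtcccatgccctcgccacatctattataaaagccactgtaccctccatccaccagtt
Lcn2: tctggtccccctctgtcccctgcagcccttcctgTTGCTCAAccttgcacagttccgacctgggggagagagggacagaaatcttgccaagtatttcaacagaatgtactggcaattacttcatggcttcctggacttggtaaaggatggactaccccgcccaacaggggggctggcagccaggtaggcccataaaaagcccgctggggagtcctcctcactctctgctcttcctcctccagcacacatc

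The C/EBP letters were present in 7 of the 8 windows, all but that of Apcs, and in 36.8% of the 32851 promoter windows of the same length. The windows of Saa4 and Hpx, which are not shown, were among the 7. The letters TTCNNNGAA of the STAT motif were present in 1 of the 8 windows, that of Apcs, against 7.02% of all, and the NF-kB motif was in 0 of the 8 against 7.25% of all. The single STAT match overlapped no C/EBP match. A match is only a match of letters. The windows of Saa1 and Saa2 were 94.8% identical over 251 aligned columns, while Saa3 was 52.2% identical to Saa1 and 52.4% to Saa2. The transcripts of Saa1 and Saa2 are near copies as well. The dimmer Saa1 probe set is annotated to Saa1 on the platform but its source sequence belongs to Saa2 in RefSeq, and probe sets of this kind can bind both, so the levels of Saa1 and Saa2 cannot be cleanly separated.

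In a few livers of 2-d mice nearly all of these genes were high together, which widened the spread between mice at 2-d. Of the 23 2-d mice, 5 had all 10 genes above the highest of the 24 4-wk mice. These were L-P/C-HF mice 7, 8, 9 and 10 and H-P/C-HF mouse 5. In 8 mice 1 gene, and in 3 mice 0 genes, lay above every 4-wk mouse, and the other 7 mice lay between, with 3 to 8 genes. The highest of all was L-P/C-HF 2-d mouse 9, which held the top value of 9 of the 10 genes, and its Saa2 level of 14.81 was the highest value in the whole table. Mouse 9 is also one of 3 further arrays that correlate less well with the others, so values without it are given below.

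**Figure D1:**
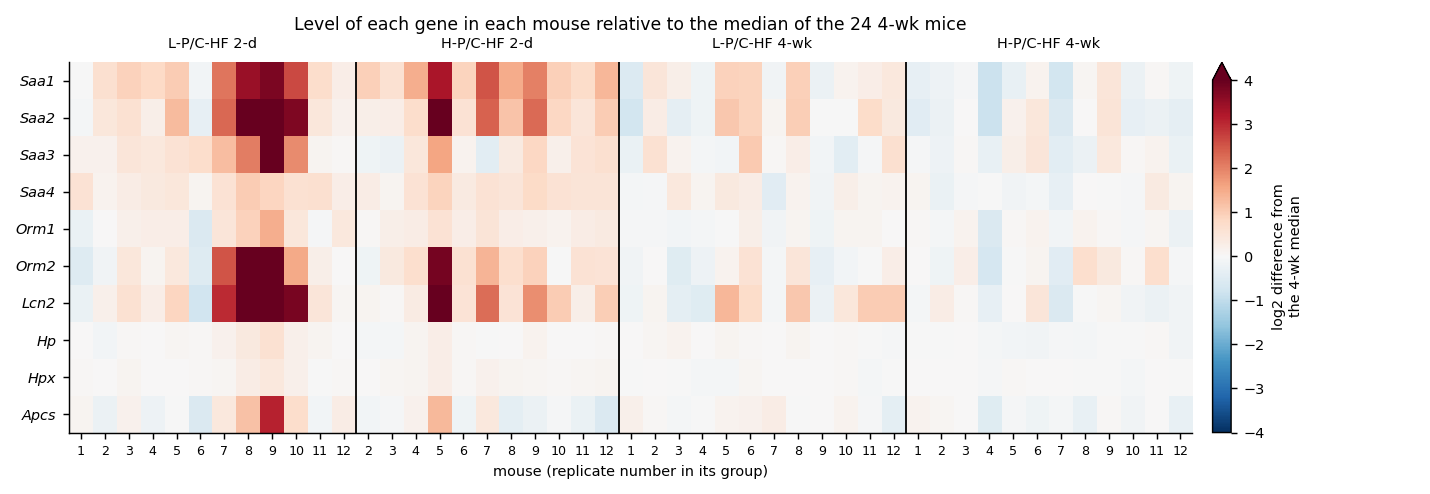
Each column is a mouse, numbered within its group, each row a gene, and the colour is the log2 difference from the median of the 24 4-wk mice, cut at 4. L-P/C-HF 2-d mice 7 to 10 and H-P/C-HF 2-d mouse 5 are red across the strongly varying genes, while the 4-wk columns are pale.

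Saa1, Saa2 and Saa3 encode the inducible serum amyloid A proteins, apolipoproteins that travel on high density lipoprotein. Saa2 (1449326_x_at) had a lowest, median and highest level of 7.98, 8.83 and 14.81 in L-P/C-HF 2-d mice, of 8.52, 9.12 and 12.63 in H-P/C-HF 2-d mice, of 7.56, 8.505 and 9.38 in L-P/C-HF 4-wk mice and of 7.43, 8.07 and 8.83 in H-P/C-HF 4-wk mice. The groups overlapped, and 9 of the 23 2-d mice lay above every 4-wk mouse. From the lowest to the highest mouse, Saa2 spanned a factor of 114 at 2-d (25.1 without mouse 9) and of 3.86 at 4-wk. Its SD between mice, pooled over the diets, was 1.77 at 2-d and 0.50 at 4-wk, a ratio of 3.55.

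Saa1 (1450788_at) ranged from 9.98 to 13.84 around a median of 10.94 in L-P/C-HF 2-d mice and from 10.71 to 13.35 around 11.42 in H-P/C-HF 2-d mice. At 4-wk it ranged from 9.54 to 11.05 around 10.35 and from 9.23 to 10.56 around 9.905. Here the shift was not only in a few mice, since 11 of the 23 2-d mice exceeded every 4-wk mouse and the median over 2-d mice was 11.05, equal to the highest 4-wk level. The SD ratio was 2.58, and 2.60 on the other Saa1 probe set. Saa3 (1450826_a_at), which macrophages and fat tissue also make, reached 14.05 in mouse 9 but lay between 8.62 and 10.64 in the other L-P/C-HF 2-d mice and between 8.17 and 10.15 in H-P/C-HF 2-d mice. At 4-wk Saa3 lay between 8.15 and 9.64, and its SD ratio fell from 3.20 to 1.74 without mouse 9.

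Saa4 encodes the constitutive serum amyloid A, which is made without an acute stimulus. On its brightest probe set (1419318_at) the level ranged from 12.70 to 13.60 and from 12.69 to 13.47 in the 2-d mice of L-P/C-HF and of H-P/C-HF, and from 12.14 to 13.02 and from 12.28 to 12.95 in the respective 4-wk mice, and 15 of the 23 2-d mice lay above every 4-wk mouse. The spread hardly differed, with an SD of 0.25 at 2-d and 0.21 at 4-wk and a ratio of 1.15. The dimmer Saa4 probe set (1419319_at) differed in this, as its groups overlapped almost fully. It ranged from 10.86 to 12.68 and from 11.09 to 12.80 in the 2-d mice and from 11.03 to 12.23 and from 10.93 to 12.16 in the 4-wk mice, with a ratio of 1.54.

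Orm1 and Orm2 encode alpha-1-acid glycoproteins (orosomucoids), which bind drugs and damp inflammation. Orm2 (1420438_at) had a lowest, median and highest level of 6.56, 7.39 and 12.79 in L-P/C-HF 2-d mice and of 6.89, 7.67 and 10.89 in H-P/C-HF 2-d mice. In 4-wk mice it lay between 6.58 and 7.65 on L-P/C-HF and between 6.38 and 7.72 on H-P/C-HF. Thus the lower ends of the groups coincided and the upper ends did not, with a span of 75.1-fold at 2-d (45.6-fold without mouse 9) and 2.53-fold at 4-wk and an SD ratio of 4.71, the largest of the 10 genes. Orm1 (1451054_at), already among the brightest probe sets of the liver, ranged from 12.14 to 14.15 in L-P/C-HF 2-d mice and from 12.54 to 12.94 in L-P/C-HF 4-wk mice. On H-P/C-HF it ranged from 12.74 to 13.29 at 2-d and from 12.14 to 12.85 at 4-wk. Its SD was therefore 4.50 times as large at 2-d on L-P/C-HF but 0.763 times on H-P/C-HF, the only member and diet in which the spread was not wider at 2-d.

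Lcn2 encodes lipocalin 2, which binds bacterial siderophores and is released by hepatocytes and neutrophils. Lcn2 (1427747_a_at) had a lowest, median and highest level of 6.63, 7.96 and 13.62 in L-P/C-HF 2-d mice, 7.47, 7.97 and 12.08 in H-P/C-HF 2-d mice, 6.92, 7.68 and 8.73 in L-P/C-HF 4-wk mice and 6.82, 7.36 and 7.89 in H-P/C-HF 4-wk mice. The medians of the 2-d groups lay within the range of all 4-wk mice, but the H-P/C-HF 2-d median lay above every H-P/C-HF 4-wk mouse. Of the 23 2-d mice, 7 lay above every 4-wk mouse. The span was 127-fold at 2-d (43.7-fold without mouse 9) and 3.76-fold at 4-wk. Its SD of 1.87 at 2-d was the largest of all 45037 probe sets, followed in rank by Saa2 and Orm2.

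Hp encodes haptoglobin, which binds free haemoglobin, and Hpx encodes hemopexin, which binds free haem. Both lay near the top of the scale in every mouse, and their spans were small. Array signals can respond less to a change in RNA at such levels, and the part of this in the small spans was not tested. Hp (1448881_at) ranged from 13.83 to 14.54 in L-P/C-HF 2-d mice, from 13.85 to 14.21 in H-P/C-HF 2-d mice and from 13.79 to 14.06 over all 4-wk mice. Hpx (1423944_at) ranged from 14.02 to 14.47, from 14.08 to 14.32 and from 13.96 to 14.12 in the same groups. The 4 highest 2-d mice were in both genes L-P/C-HF mice 8, 9 and 10 and H-P/C-HF mouse 5, while L-P/C-HF mouse 7 was at the 2-d median of Hpx, 14.14. The SD ratios were 2.78 and 2.42. The 2-d median of Hp was 13.97 against 13.935 at 4-wk, a shift much smaller than the span.

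Apcs encodes serum amyloid P, a pentraxin. Apcs (1419059_at) had a lowest, median and highest level of 10.45, 11.165 and 14.08 in L-P/C-HF 2-d mice, 10.44, 10.90 and 12.31 in H-P/C-HF 2-d mice, 10.62, 11.035 and 11.32 in L-P/C-HF 4-wk mice and 10.54, 10.95 and 11.14 in H-P/C-HF 4-wk mice. The median of all 2-d mice, 10.98, was not above that of the 4-wk mice, 11.015, and 6 of the 23 2-d mice lay above and 2 below every 4-wk mouse. The SD was 0.78 at 2-d and 0.18 at 4-wk, a ratio of 4.33 (2.76 without mouse 9), so that Apcs reached further at 2-d in both directions around a similar median.

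**Figure D2:**
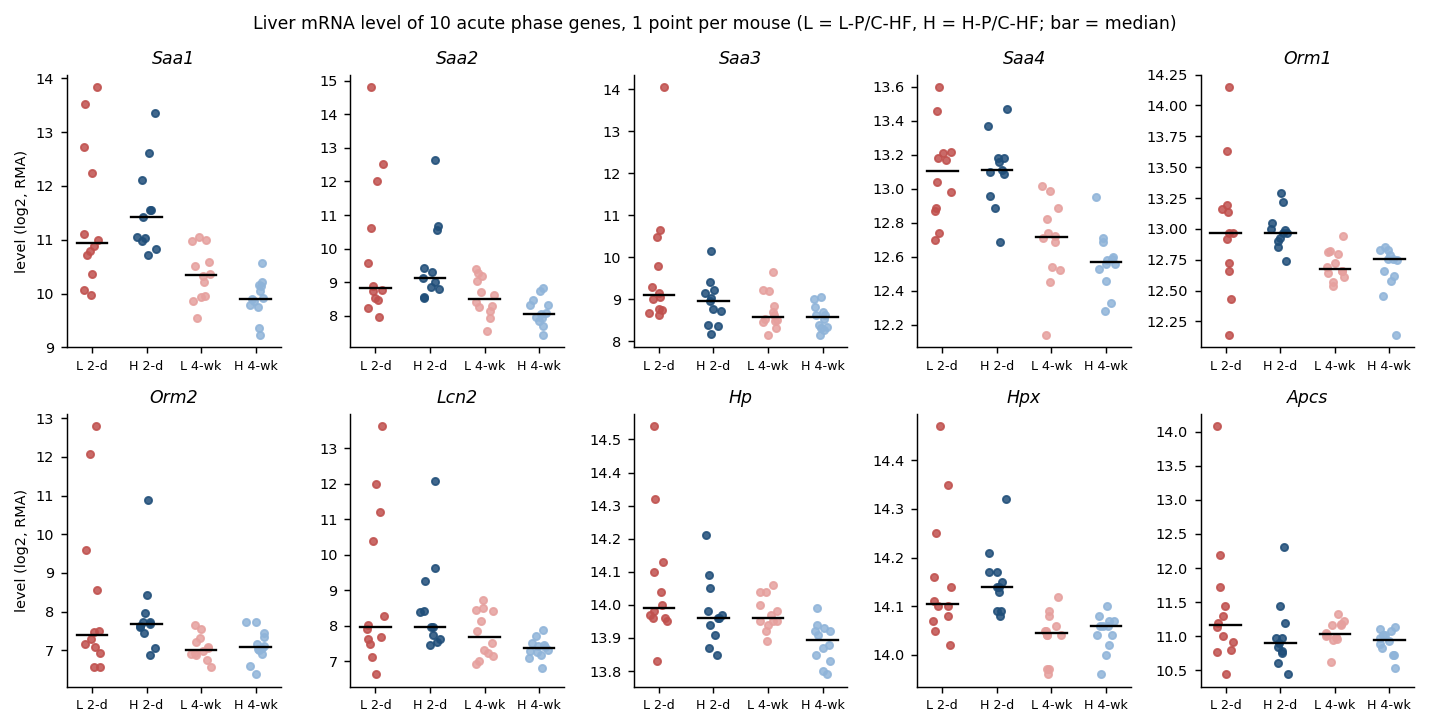
Points are the log2 levels of single mice on the brightest probe set of each gene, bars are group medians, and each panel has its own axis. Over both diets, the 2-d median minus the 4-wk median is 0.035 for Hp and -0.035 for Apcs, but 0.55 for Orm2 and 0.56 for Lcn2. In each panel the upper points of the 2-d groups lie above all 4-wk mice.

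Over the 12 probe sets the SD was larger at 2-d than at 4-wk in 12, where 58.5% of all probe sets had a ratio above 1, and the ratio was above 2 in 10, where 0.899% of all did. The median ratio was 2.69 for the 12 probe sets and 1.05 for all, and since the genes were chosen for this ratio, these counts only describe the choice. Within L-P/C-HF the ratio was above 1 in 12 of 12, with a median of 3.50 against 1.11 for all probe sets, and within H-P/C-HF in 11 of 12, with a median of 2.09 against 0.96 for all. Without mouse 9 it was above 1 in 12 of 12 and above 2 in 7, and the median was 2.18 against 1.02 for all. With the median absolute deviation, which gives little weight to extreme mice, 11 of 12 were above 1 but 3 of 12 above 2, and the ratios of Saa2 and Lcn2 became 1.50 and 1.31. The ratio of Saa4 fell to 0.98 in that measure. Those of Orm2 and Apcs stayed at or above 2.508 and 2.255 under every alternative that was run, that measure included.

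**Figure D3:**
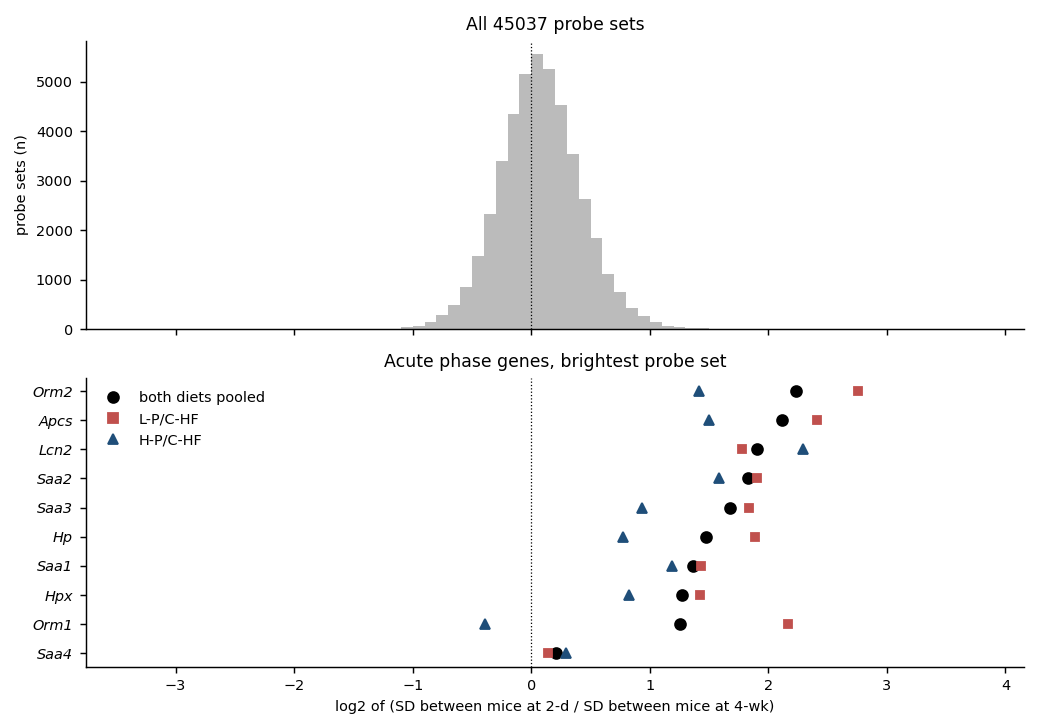
The upper panel is the histogram of the log2 ratio of the SD between mice at 2-d over that at 4-wk for all 45037 probe sets, and the lower panel gives the 10 genes (brightest probe set) for both diets pooled and for each diet. 9 genes lie above a pooled ratio of 2 and Saa4 lies at 1.15, and the H-P/C-HF ratio of Orm1 lies left of 0.

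Array quality, markers of other cells and the liver identity of the samples were read beside these levels. RNA integrity was read from the 3′ minus 5′ signal of the Gapdh and beta-actin control probe sets, where a larger value means more degraded RNA. It was larger at 2-d (medians of 0.44 for L-P/C-HF, 0.45 for H-P/C-HF) than at 4-wk (0.24 and 0.25). Among 2-d mice the highest value, 0.90, was in L-P/C-HF mouse 1, which had 1 of the 10 genes above all 4-wk mice. Of the mice with all 10 genes above, L-P/C-HF mice 7, 8, 9 and 10 were at 0.29, 0.35, 0.305 and 0.50 and H-P/C-HF mouse 5 at 0.48. The 3 mice with 0 genes above, L-P/C-HF mice 2 and 6 and H-P/C-HF mouse 2, were at 0.735, 0.62 and 0.45. H-P/C-HF mouse 12, at 0.745, had 4 genes above. Kupffer cells are resident liver macrophages, and 18 of 20 markers listed for them were measured. Their mean level ranged from 7.92 to 8.91 (median 8.37) in L-P/C-HF 2-d mice, from 8.03 to 8.70 (8.25) in H-P/C-HF 2-d mice, from 8.66 to 9.82 (9.34) in L-P/C-HF 4-wk mice and from 8.12 to 9.42 (8.99) in H-P/C-HF 4-wk mice, which is higher at 4-wk, and none of the 18 was among the 100 genes most like the 10. In bulk liver, more cells of a type and more RNA per cell cannot be told apart. The part of RNA integrity and of these cells in the spread was not tested. All samples had the markers of hepatocytes, with albumin (Alb) between 14.38 and 14.70.

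No difference in level between the diets passed the test for any of the 10 genes. H-P/C-HF was compared with L-P/C-HF within each duration by limma over all 45037 probe sets, two-sided with Benjamini-Hochberg adjustment, a contrast that was not part of the choice of genes. At 2-d, 0 of 12 probe sets passed an adjusted p of 0.05, where 0.0133% of all did. Of the 12, 8 had a negative log2 change, where 46.7% of all did, but 4 did without mouse 9 and 11 with array B25 included. The members vary together, so that these counts are not 12 separate observations. 1 of the 12 had an unadjusted p under 0.05, where 3.52% of all did. A plain one-way ANOVA, without the error assessment that followed it in the study, gave 0 at either threshold. The probe set with the unadjusted p was that of Saa3, whose mean was 9.69 ± 1.53 (SD, n = 12) on L-P/C-HF and 8.94 ± 0.56 (SD, n = 11) on H-P/C-HF. Its log2 change was -0.75 (standard error 0.33, unadjusted p = 0.0291, adjusted p = 1 from limma), and -0.36 (unadjusted p = 0.089) without mouse 9. For Saa2 the log2 change was -0.34 (95% interval from -1.34 to 0.66), for Lcn2 -0.44 (from -1.50 to 0.61) and for Orm2 -0.39 (from -1.33 to 0.56). Without mouse 9 these became 0.10, -0.02 and 0.02, so that 1 mouse carried all 3. These intervals include changes of more than 1 log2 unit downward, so that sizeable differences between the diets were not detectable against this spread.

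At 4-wk, where mice were more alike, 0 of 12 probe sets passed (0% of all did), and 0 had an unadjusted p under 0.05 (2.76% of all). The log2 change was negative for 10 of 12, where it was for 56.9% of all. It was -0.45 for Saa1 (from -1.09 to 0.19), -0.42 for Saa2 (from -1.40 to 0.56), -0.41 for Lcn2 (from -1.44 to 0.63) and 0.05 for Orm2 (from -0.87 to 0.98). These intervals rest on 1 estimate of spread over the 4 groups, which includes the wide 2-d mice. When only the 4-wk mice were fitted, 5 of 12 had an unadjusted p under 0.05, where 3.05% of all did, among them Saa1 (p = 0.00776) and Hp (p = 0.00756), and the smallest adjusted p was 0.999 from limma. The plain ANOVA gave 4 unadjusted, where 3.15% of all passed, and 0 adjusted, and its smallest p was that of Hp (unadjusted p = 0.000875, adjusted p = 0.999). Both of these fits take their error from the 4-wk mice alone. The genes were chosen for a spread that was narrower at 4-wk, which favours small p there, so these unadjusted counts are not independent of the choice. Some members also vary together at 4-wk, so that counts over the 12 are not 12 separate observations. The difference between the diet effects, 4-wk minus 2-d, passed for 0 of 12 (0% of all), with 0 at an unadjusted p under 0.05 (1.63% of all).

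The spread between mice at 2-d was numerically smaller on H-P/C-HF for all 12 probe sets, but this did not pass. The absolute distance of each mouse from its group median was tested by limma in the same way. Orm2 mice lay on average 1.365 from the median on L-P/C-HF and 0.56 on H-P/C-HF (difference -0.81, adjusted p = 0.763 from limma). Orm1 mice lay 0.37 and 0.11 from it (difference -0.26, unadjusted p = 0.000327, adjusted p = 0.763), and Lcn2 mice 1.59 and 0.86 (difference -0.73, adjusted p = 0.763). Of 12 probe sets, 0 passed (0% of all), 5 had an unadjusted p under 0.05 (6.50% of all), and the members vary together, so that these counts are not 12 separate observations. They are also not independent of how the genes were chosen, since of the 5 mice in which all 10 genes were high and which widened the 2-d spread, 4 were on L-P/C-HF. Of all 45037 probe sets, 32045 also had a smaller distance on H-P/C-HF. Without mouse 9 the direction was the same in 12 of 12, and 1 had an unadjusted p under 0.05. At 4-wk 0 of 12 passed (0% of all), with 0 unadjusted (1.91% of all), and 8 of 12 were smaller on H-P/C-HF, as were 24726 of all 45037 probe sets.

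The same mice were high in the different genes at 2-d. Deviations from the group mean were correlated between Saa2 and each of the 9 other genes, separately in the 23 2-d and the 24 4-wk mice. The genes were chosen on their spread over these 2-d mice, so the 2-d correlations are a description with no test. At 2-d r was between 0.78 (Saa4) and 0.99 (Lcn2), and Spearman's rho between 0.69 for Apcs and 0.98 for Lcn2. Lcn2 and Saa2 thus ranked the mice almost identically. When the 2 mice farthest from the Saa2 median (L-P/C-HF mouse 9 and H-P/C-HF mouse 5) were left out, r was still between 0.74 (Saa4) and 0.98 (Lcn2).

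At 4-wk, within the narrow range that remained, Saa2 varied with Saa1 (r = 0.87, rho = 0.88), Lcn2 (0.81, 0.84), Orm2 (0.68, 0.76), Orm1 (0.61, 0.64) and Saa3 (0.57, 0.60). For the 4-wk mice p-values are from two-sided permutation tests with 100000 resamples within diet, adjusted over the 18 relations computed, and the smallest p these resamples can give is 1e-05. The 18 include the 2-d relations, described above without a test, whose small p lower the adjusted p of the 4-wk relations that passed. Unadjusted, the permutation p of these 5 was at most 0.00609 for r and 0.00323 for rho. The adjusted permutation p of these 5 was at most 0.00783 for r and 0.00415 for rho, and without the 2 mice farthest from the Saa2 median r was between 0.65 and 0.82. It was low for Saa4 (r = 0.19, rho = 0.15, adjusted p = 0.494), Apcs (0.07, 0.04, adjusted p = 0.853), Hpx (0.06, 0.07, adjusted p = 0.854) and Hp (0.03, 0.08, adjusted p = 0.878). The SD at 4-wk was 0.06 for Hp and 0.04 for Hpx. The difference between the 2-d and 4-wk correlations was not tested, and the choice of genes rested on the spread of the 4-wk mice too.

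**Figure D4:**
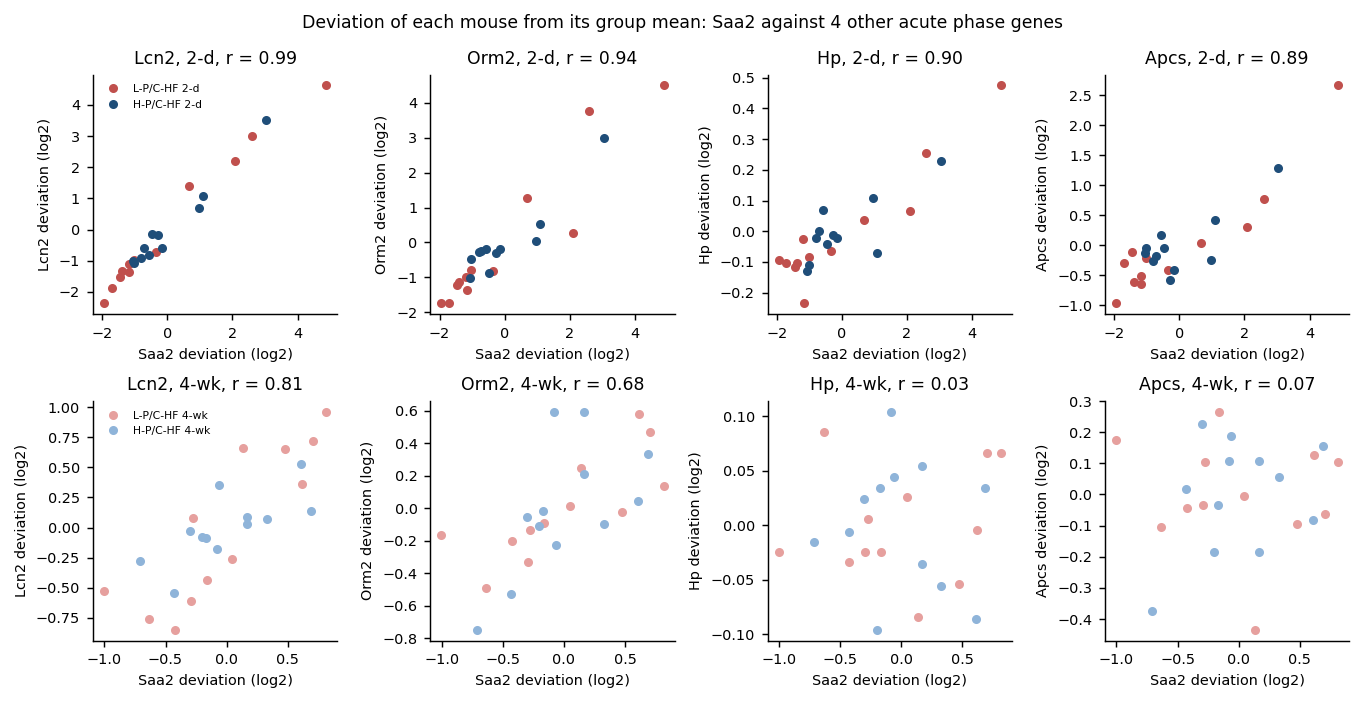
Deviations of single mice from their group mean (log2) in Saa2 on the x axis and in Lcn2, Orm2, Hp or Apcs on the y axis, for 2-d mice (top) and 4-wk mice (bottom), with axes that differ between panels. The 2-d mice follow a line in all 4 genes (r from 0.89 to 0.99), and the 4-wk mice do so for Lcn2 (0.81) and Orm2 (0.68) only.

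Genes outside the 10 were ranked by how closely they followed them from mouse to mouse, as a description over the 47 mice with no test. The measure was Pearson's r between a gene's deviations from its group means and the mean standardized deviation of the 10 genes, over 18193 genes. The 8 genes with the highest r were Litaf (0.92), named as a lipopolysaccharide-induced TNF factor, Itih3 (0.91) and Itih4 (0.88), plasma proteins of the inter-alpha-trypsin inhibitor family, Prg4 (0.90), the lubricant proteoglycan 4, Prtn3 (0.90), proteinase 3, Orm3 (0.90), another orosomucoid, Serpina3n (0.89), an acute phase protease inhibitor, and Serpina10 (0.88), which inhibits coagulation factors. Without mouse 9, r was between 0.79 and 0.86 for these 8. Prg4 ranged from 9.27 to 13.11 in L-P/C-HF 2-d mice, from 10.17 to 11.58 in H-P/C-HF 2-d mice and from 9.07 to 10.21 in 4-wk mice. Prtn3 ranged from 5.03 to 9.97, from 5.12 to 7.56 and from 4.90 to 5.70 in the same groups. In Prtn3 the 2-d medians (5.44 and 5.39) stayed within the 4-wk range, whereas in Prg4 both 2-d medians (10.37 and 10.31) lay above every 4-wk mouse.

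Of 30 further positive acute phase proteins that were listed, 26 were measured, and 9 of them were among the 100 genes most like the 10. Beside Itih3, Itih4 and Serpina3n these were Fgl1 (fibrinogen-like 1, r = 0.87), Lbp (lipopolysaccharide binding protein, 0.86), Lrg1 (0.85), Steap4 (a metalloreductase, 0.83), Serping1 (the C1 inhibitor, 0.75) and Fgb (fibrinogen beta, 0.72). The median r of the 26 was 0.53, and the SD ratio was above 1 in 23 and above 2 in 7, with a median of 1.43. Crp, which is only a weak acute phase gene in mice, stayed between 12.25 and 12.88 in all 47 mice. The hormone hepcidin (Hamp), an acute phase product in iron control, stayed at 13.41 in mouse 9, within the range of the other 46 mice. The diet tests called 0 of the 26 at 2-d and 0 at 4-wk, and the smallest unadjusted p at 2-d was that of Itih4 (log2 change -0.16, unadjusted p = 0.0258, adjusted p = 1 from limma), followed by Vnn1 (-0.31), Cp (-0.11) and Cfb (-0.12).

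Genes of cytokines, their receptors and transcription factors followed in part. Of 36 measured cytokine, receptor and transcription factor genes, Stat3, which carries the interleukin 6 signal, was the 1 gene among the 100 most like (r = 0.76). Stat3 ranged from 10.05 to 11.74 in L-P/C-HF 2-d mice and from 9.87 to 10.77 in 4-wk mice. Il6 (from 3.83 to 4.52 over all 47 mice), Il1b (from 6.38 to 7.23) and Tnf (from 6.89 to 7.85) spanned less than 1 log2 unit, and the mean level of Il6 exceeded that of 3.42% of probe sets. In mouse 9, 9 of the 36 were the highest of the 47 mice and 3 the lowest, and among the highest were Nfkbiz (8.96 against 6.49 to 8.49), an inhibitor-like regulator of NF-kB, and Bcl3 (9.90 against 7.90 to 9.27), a cofactor of NF-kB. The median r of this list was 0.09.

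Few neutrophil genes followed. Of 16 measured neutrophil markers, 3 were among the 100 most like, namely Prtn3, S100a8 (r = 0.76) and Wfdc21 (0.73). Without mouse 9, r was 0.59 for S100a8 and 0.63 for Wfdc21. The median r of the 16 was -0.06 and the lowest -0.37 (Mmp8). Wfdc21 had a mean level of 13.21, above 99.6% of probe sets, and which cells made it in bulk liver was not tested. In mouse 9, 4 of the 16 were the highest of the 47 mice, namely Prtn3, S100a8, S100a9 (7.88 against 6.13 to 6.99) and Wfdc21, and 3 were the lowest, namely Ngp, Camp and Ltf. The granule genes Ngp (from 6.68 to 7.84 over all 47 mice), Camp (from 5.86 to 6.94), Ltf (from 7.32 to 8.01) and Mpo (from 6.10 to 6.94) varied less than Prtn3. The part of these cells in the spread was not tested. The mean of the 16 markers lay between 6.79 and 7.30 in L-P/C-HF 2-d mice, between 6.80 and 7.15 in H-P/C-HF 2-d mice and between 6.79 and 7.19 in 4-wk mice. Of the lists of other cells, the 18 Kupffer cell markers had a median r of 0.34, the 10 adipocyte markers of -0.04 and the 11 hepatocyte genes of -0.35. Without mouse 9, r was higher for every Kupffer cell marker but Mrc1 and Ccr2, and ranged from -0.41 (Ccr2) to 0.56 (Cd5l). The hepatocyte value leaned on mouse 9. Without it, r of the hepatocyte genes ranged from -0.35 (Apoc3) to 0.23 (Tat), and that of Alb went from -0.35 to 0.02. None of the 126 listed genes was called by limma in the diet comparisons (smallest adjusted p of 0.867 at 2-d and 0.999 at 4-wk). Of the 126, 6 at 2-d and 13 at 4-wk had an unadjusted p under 0.05, where 3.52% and 2.76% of all probe sets did.

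**Figure D5:**
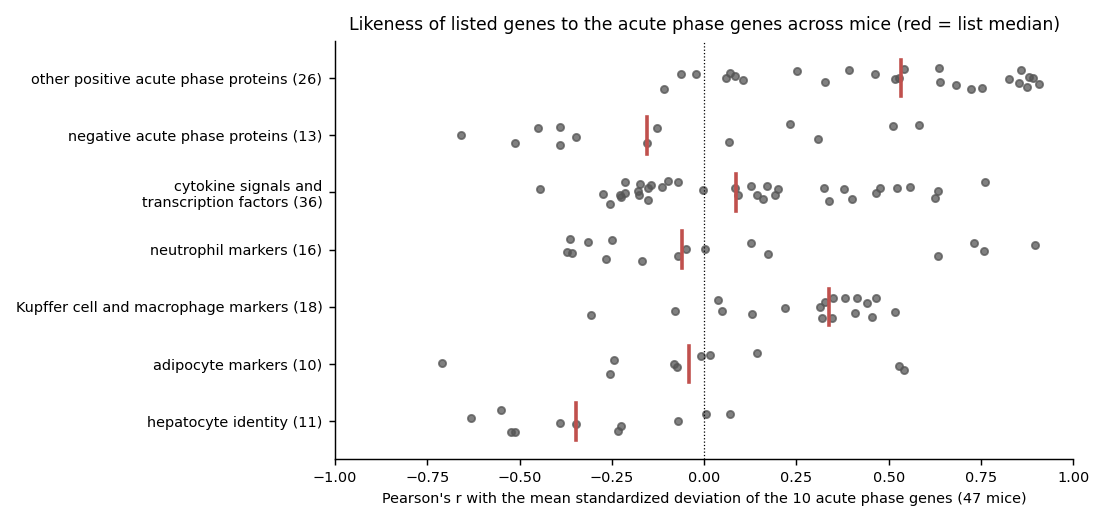
Each point is a listed gene, placed by its Pearson's r with the mean standardized deviation of the 10 acute phase genes over 47 mice, and red bars are list medians. The other positive acute phase proteins lie furthest right, with a median of 0.53, and hepatocyte genes furthest left, at -0.35.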

How the data were processed

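Liver total RNA of 48 mice was hybridised to Affymetrix mouse arrays, 1 array per mouse. The deposited values are log2 expression levels, made by the authors with RMA, a method that corrects background, normalizes arrays to each other and summarizes the probes of a probe set. That the base is 2 was inferred from how far the values reach. Control probe sets (64 of 45101) and array B25 were left out. The members, the gene lists and the tests were chosen with earlier results of these data known. All 12 member probe sets were used, and a gene was named by its brightest probe set. The genes named are the 10 members, the 8 genes most like them, and of each list those called or with the smallest p for diet at 2-d, and other listed genes given with values were picked after their values were seen. Gene symbols came from the platform annotation, where 932 probe sets carried several symbols and 9160 none.

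One limma 3.58.1 fit in R 4.3.3 (lmFit, eBayes with a trend, 1 coefficient per group) gave the diet effects at 2-d and 4-wk and their difference, and a second fit on absolute deviations from the group median gave the differences in spread. Tests of duration are not reported, because the members were chosen on that contrast. Correlations at 4-wk used permutation tests (Python 3.11.15), and promoters came from RefSeq. The procedure was tested on simulated data. Same-numbered mice of different groups were treated as unpaired in the main fits. Between the 2-d groups the median correlation of their deviations was 0.265, with 7 of 11 pairs over 0.1. For the other pairs of groups the median lay between -0.101 and 0.0311, and the lowest correlation lay below 0 for each pair of groups. These values do not settle whether same-numbered 2-d mice share some structure, and a replicate block was run as an alternative. No dates of extraction or scanning were used. The number of arrays limits the precision, and the labels give each sample as 1 mouse.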

Additional observations from a re-analysis of the deposited data

How the results depend on the processing

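The count of member probe sets called was 0 for the diet effects at 2-d and 4-wk, for their difference and for the difference in spread between diets under every alternative that was run, namely B25 kept, 3 further arrays (A01, A09, A24) removed, array weights, median centring, cyclic loess, a filter to probe sets above the median level, separate fits, no trend, an RNA quality covariate (levels only), the replicate block, one-way ANOVA (levels only) and, chosen after seeing the data, A09 (L-P/C-HF 2-d mouse 9) alone left out. The difference of diet effects has no value in a separate fit or in ANOVA. With the replicate block, 0 of 12 passed in each of these comparisons, and the block moved the count of calls over all probe sets from 6 to 1 at 2-d and from 0 to 2 at 4-wk. Over all probe sets, calls at 2-d ranged to 23 under cyclic loess, 12 under the filter and 0 under ANOVA, and at 4-wk reached 10 with array weights. Directions of small diet changes at 2-d turned in 9 of 120 cases, none of them called. Without A09 the log2 change was 0.10 for Saa2, 0.0891 for Orm1, 0.0218 for Orm2 and 0.0236 for Hpx. Without A01, A09 and A24 it was 0.0418 for Orm1 and 0.0206 for Hpx, with array weights 0.0118 for Hpx, with cyclic loess 0.00079 for Hpx, and with B25 included -0.0583 for Saa4. At 4-wk none of 120 turned. The SD ratio of Saa4 fell below 1 under cyclic loess (0.92) and with the median absolute deviation (0.98), and 28 of 90 ratios moved by more than their error without crossing 1. Of the 9 correlations at 4-wk, 5 passed under each of 3 alternatives, with the same adjustment over 18 relations that include the 2-d ones. The cause of these changes was not tested. Alternatives for the duration tests were not run. No depth is known for arrays, and the brightest members, Hp and Hpx, lie where array signals can respond less, which was not tested.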

Other observations

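L-P/C-HF 2-d mouse 9 differed in more than the 10 genes, and these genes were picked after their values were seen. A2m, the alpha-2-macroglobulin that is an acute phase gene in the rat, was at 12.70 in this mouse and between 5.26 and 6.77 in the other 46. Serpina6, which encodes the carrier of corticosterone in plasma and is a negative acute phase gene, was at 9.43 against 11.33 to 12.38. Of the adipocyte list, Car3, carbonic anhydrase 3, was at 11.86 against 13.57 to 14.03. Fabp4, the fatty acid binding protein of adipocytes and macrophages, was at 10.56 against 5.82 to 8.77, and Adipoq was at 4.74 and within the range of the others. Which cells made these transcripts was not tested. Osmr, the oncostatin M receptor, was at 8.21 against 5.94 to 7.14, and Socs3, the feedback inhibitor of STAT3 signalling, at 11.22 against 6.72 to 10.25. The negative acute phase genes Rbp4 (13.59 against 13.98 to 14.16), Ttr (14.20 against 14.31 to 14.54) and Alb (14.38 against 14.49 to 14.70) were lowest in this mouse, by less than 1 log2 unit each. In all, 6 of the 13 measured genes of that list were the lowest of the 47 mice in mouse 9 and 1 was the highest, Serpina7 (11.28 against 8.83 to 11.10), which encodes the thyroxine binding globulin. Of the 11 measured hepatocyte genes, 8 were lowest in this mouse, and of the 26 other positive acute phase proteins, 15 were highest. Of the 10 measured adipocyte markers, 1 was highest in it, Fabp4, and 3 were lowest, Car3, Acp5 and Retn. Of the 18 Kupffer cell markers, 0 were highest and 1 was lowest. The median r of the 13 negative acute phase proteins with the 10 genes over 47 mice was -0.15, and that of Rbp4 was -0.66 with and -0.29 without this mouse.

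In the array that was left out, B25, 8 of the 10 genes lay below the lowest of the 11 other H-P/C-HF 2-d mice and 0 above the highest, with Saa2 at 8.05 and Lcn2 at 7.37.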
